A study of Mus musculus with 7 samples.

Results

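Of the 22880 genes measured by RNA-seq in P14 optic nerves, 7 genes of thyroid hormone signalling are described here, taken from the table by gene name. They are the receptor genes Thra and Thrb, the receptor coregulators Ncor1 and Ncoa1, the deiodinase gene Dio2, and the hormone-induced target genes Klf9 and Hr. All 7 were found in the table and all 7 passed the filter on low values. The nerves came from 4 control mice of the genotype FASN lox/lox and 3 mutant mice of the genotype olig2cre FASN lox/lox, all on a C57Bl/6 background and at postnatal day 14. Every mouse therefore carried the floxed Fasn allele, which encodes fatty acid synthase, and the mutants differed by Cre expressed from Olig2, a gene of the oligodendrocyte (OL) lineage. Recombination is thus limited to cells with a history of Olig2 expression, and none of the groups carried Cre without the floxed gene, so Cre and the loss of Fasn cannot be told apart. Both nerves of a mouse made 1 sample. Since the nerve was used whole, fewer cells of a type and less RNA per cell cannot be told apart in any value below.

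Thyroid hormone circulates mostly as the precursor thyroxine, which enters brain cells through membrane transporters and is converted to the active form, triiodothyronine, by the deiodinase encoded by Dio2, an enzyme found mainly in astrocytes in the brain. The receptors sit on DNA with retinoid X receptors, hold corepressors such as NCoR1 while the hormone is absent and exchange them for coactivators such as SRC-1, the product of Ncoa1, when it binds. In the OL lineage the hormone is known as a timer of the step from dividing progenitor to myelin-forming cell.

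The recovered reads, that is the deposited normalized counts divided by the value of 1 read and rounded, numbered from 27452410 to 43454464 per sample. They are estimates of the reads. Fasn, the targeted gene, had 169.1 to 228.3 FPKM in the control samples and 49.0 to 69.3 FPKM in the mutant samples (log2 fold change -1.86, SE 0.138, adjusted p = 0.00312, limma-trend). FPKM are reads scaled for gene length and library size, so a comparison of levels between genes rests on the length used for each gene. Summed markers of myelinating OLs (8789.5 to 9930.2 FPKM in control) and astrocytes (2903 to 3338 FPKM) far exceeded those of neurons (11.8 to 16.3 FPKM). The optic nerve is a tract of axons without neuronal cell bodies. Fold changes below are mutant minus control on the scale of log2(FPKM + 0.5), with the limma-trend test and Benjamini-Hochberg adjustment over 13866 genes. At an adjusted p under 0.05, 363 genes (2.62%) passed, 175 higher and 188 lower in the mutant. This split moved with scaling, to 124 higher and 215 lower with median-ratio scaling and to 103 and 267 on the normalized counts. With the replicate number as a block 1159 genes (8.36%) passed. Control 4 has no mutant of the same number, so with this block it adds nothing to the genotype estimate.

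None of the 7 genes passed this threshold, against a background of 2.62% of all genes tested. At an unadjusted p under 0.05, 5 of the 7 passed (Thrb, Klf9 and Ncoa1 higher, Thra and Hr lower), against 24.4% of all genes. In 4 of the 7 genes the values of control and mutant samples did not overlap, against 21.1% of all genes tested. Thrb and Ncoa1 lay higher in every mutant sample (12.9% of all genes) and Thra and Hr lay lower in every mutant sample (8.26% of all genes). With count models on the recovered reads, the number past an adjusted p of 0.05 was 1 of 7 by the edgeR quasi-likelihood test (Thrb, background 2.89%), 3 of 7 by the edgeR likelihood ratio test (Thra, Thrb and Hr, background 9.68%) and 3 of 7 by DESeq2 (Thra, Thrb and Hr, background 13.3%). By limma on the normalized counts it was 0 of 7 (background 2.67%). The median log2 fold change of the 7 genes was 0.26, beside 0.05 over all genes tested. The 7 mean levels in control spanned from 270.5 FPKM for Thra to 1.78 FPKM for Dio2, in the order Thra, Ncor1, Klf9, Hr, Ncoa1, Thrb and Dio2. The ranges of neighbours in this order were separate in both genotypes, except for Thrb and Dio2, whose samples overlapped. The order depends on the gene lengths used. Ncor1, at 2676 bases, had 4428 to 7379 reads per sample. Klf9, at 3263 bases, had 4134 to 6570, so their order in FPKM rests partly on these lengths.

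**Figure D1:**
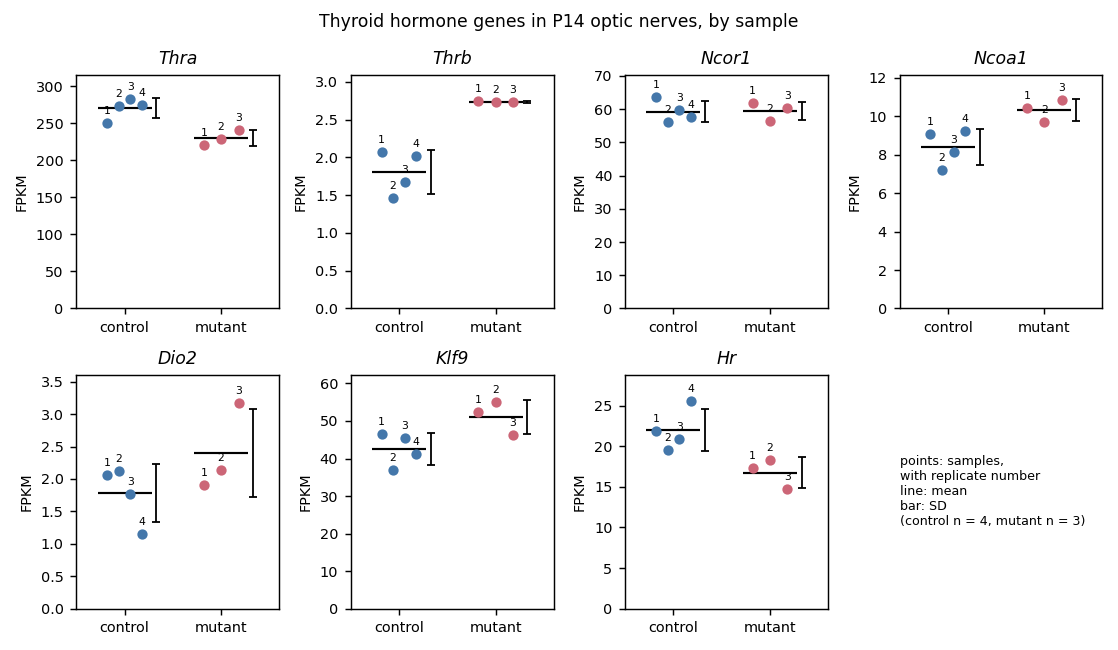
FPKM of each of the 7 genes in each sample (y axes from 0), with points for samples labelled by replicate number, lines for means and bars for SD, in 4 control and 3 mutant nerves. The mutant points of Thrb and Ncoa1 lie above every control point, those of Thra and Hr lie below every control point, and those of Ncor1, Klf9 and Dio2 overlap the control points.

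Thra (ENSMUSG00000058756, GRCm38 chr11:98741811-98769006, plus strand) encodes thyroid hormone receptor alpha, the main receptor of brain and of OL progenitors, and a splice form that does not bind the hormone. It had 250.9, 273.3, 282.4 and 275.4 FPKM in controls 1 to 4 and 220.5, 228.6 and 241.4 FPKM in mutants 1 to 3. The highest mutant sample was thus below the lowest control sample. The mean was 270.5 ± 13.6 FPKM (SD, n = 4) for control nerves against 230.2 ± 10.54 FPKM (SD, n = 3) for mutant nerves, which is 85.1% of control. This is a log2 fold change of -0.23 (SE 0.0652, 95% interval -0.38 to -0.08, adjusted p = 0.0877, limma-trend). With the models on reads it was -0.28 with an adjusted p of 0.0328 by the edgeR likelihood ratio test and -0.28 with an adjusted p of 0.00814 by DESeq2. By the edgeR quasi-likelihood test it was -0.28 and did not pass (adjusted p = 0.0774). Between 10719 and 19850 reads per sample stand behind these values. The last exons of Thra overlap Nr1d1, which encodes a circadian repressor, on the opposite strand at chr11:98767932-98769006 (1075 bases, of which 263 are exonic in both genes in GENCODE M21). Whether the counting used strand is not given in the sources used here, so reads there could belong to either gene. Nr1d1 had 7.91 to 16.5 FPKM in control and 12.9 to 14.9 FPKM in mutant samples (log2 fold change 0.25, adjusted p = 0.465), so that it was far below Thra in every sample.

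Thrb (ENSMUSG00000021779, chr14:17660960-18038088, plus strand) encodes receptor beta, which in many tissues is itself raised by the hormone. It had 2.07, 1.47, 1.68 and 2.02 FPKM in controls 1 to 4 and 2.75, 2.73 and 2.73 FPKM in mutants 1 to 3. All mutant samples were higher than all control samples and were nearly equal to each other, while the control samples spread more widely. The mean was 1.81 ± 0.286 FPKM (SD, n = 4) for control nerves against 2.74 ± 0.0124 FPKM (SD, n = 3) for mutant nerves, or 151% of control. The log2 fold change was 0.50 (SE 0.124, 95% interval 0.22 to 0.78, adjusted p = 0.0675, limma-trend). On reads it was 0.55 with an adjusted p of 0.0467 by the edgeR quasi-likelihood test, 0.55 with an adjusted p of 0.00402 by its likelihood ratio test and 0.56 with an adjusted p of 0.00331 by DESeq2. On the normalized counts with the replicate block the value was 0.58 and the adjusted p 0.0370, a fit chosen after seeing the data, in which 2 of the 7 genes passed (background 8.85%). Thrb rested on 317 to 542 reads per sample, far fewer than Thra. With so few reads and 3 samples, the closeness of the mutant values can be read only as a description.

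The pair of receptors therefore lay on opposite sides of control. Within each sample, the log2 ratio of Thra to Thrb (each as FPKM + 0.5) was 6.61, 7.12, 7.02 and 6.78 in controls 1 to 4 and 6.09, 6.15 and 6.23 in mutants 1 to 3. The ranges did not overlap, and Thra was far above Thrb in all 7 samples. The value of Thra takes in the splice form that does not bind the hormone, so the ratio is not one of hormone-binding receptors. The mean ratio was 6.88 ± 0.232 (SD, n = 4) for control nerves against 6.15 ± 0.0703 (SD, n = 3) for mutant nerves, a difference of -0.73 on the log2 scale. Its exact permutation p, two-sided, was 0.0571, which is the smallest that 4 samples against 3 can give. Since Thra lay lower and Thrb higher in every mutant sample, the ratio could not overlap. Its separation and p were therefore fixed by the values above and add no support to them. Leaving out any 1 sample gave differences from -0.82 to -0.65. The scale of the library cancels in this ratio, which does not say which of the receptor transcripts differed.

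**Figure D2:**
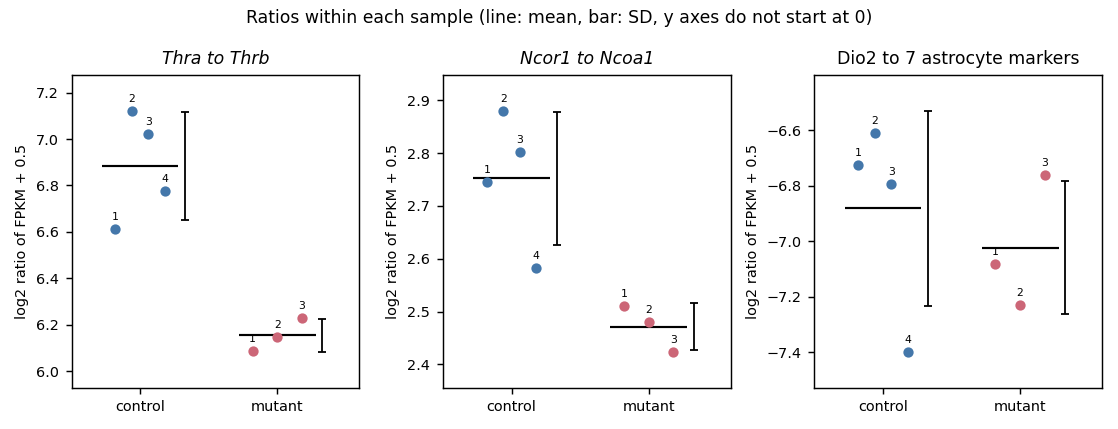
Log2 ratios within each sample (y axes do not start at 0), with points for samples labelled by replicate number, lines for means and bars for SD, for Thra to Thrb, Ncor1 to Ncoa1, and Dio2 to the mean of 7 astrocyte markers. The first ratio runs from 6.61 to 7.12 in control and from 6.09 to 6.23 in mutant samples, the second is also lower in every mutant sample, and the third overlaps between genotypes.

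Ncor1 (ENSMUSG00000018501, chr11:62316426-62458541, minus strand) encodes the corepressor that brings histone deacetylase to receptors without hormone. It had 63.6, 56.1, 59.7 and 57.7 FPKM in control and 61.7, 56.5 and 60.3 FPKM in mutant samples, in order of replicate number. The samples of both genotypes were interleaved, and the samples numbered 2 were the lowest of each genotype. The means were 59.3 ± 3.26 FPKM (SD, n = 4) and 59.5 ± 2.69 FPKM (SD, n = 3). The log2 fold change was 0.01 (SE 0.0640, 95% interval -0.14 to 0.15, adjusted p = 0.964, limma-trend), and it was slightly negative under other scalings, with -0.05 under median-ratio scaling and -0.07 on the normalized counts. Both bounds of the interval are nearer to 0 than the fold change of Thra.

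Ncoa1 (ENSMUSG00000020647, chr12:4247363-4477182, minus strand) encodes a histone acetyltransferase that joins receptors once hormone has bound. It had 9.07, 7.19, 8.13 and 9.21 FPKM in controls 1 to 4 and 10.4, 9.72 and 10.8 FPKM in mutants 1 to 3. Every mutant sample was above every control sample, though the lowest mutant sample stood close to the highest control sample. The mean was 8.40 ± 0.940 FPKM (SD, n = 4) for control nerves against 10.3 ± 0.556 FPKM (SD, n = 3) for mutant nerves, or 123% of control. For Ncoa1 the log2 fold change was 0.29 (SE 0.0992, 95% interval 0.06 to 0.51, adjusted p = 0.131, limma-trend), and no alternative brought it past the threshold. The log2 ratio of Ncor1 to Ncoa1 was 2.74, 2.88, 2.80 and 2.58 in control and 2.51, 2.48 and 2.42 in mutant samples, lower in each mutant sample than in any control sample. The difference was -0.28 (exact permutation p = 0.0571, two-sided, the smallest possible). Since the log2 fold change of Ncor1 was 0.01, this difference mostly restates the 0.29 of Ncoa1 and is not separate support. In GENCODE M21 parts of Ncor1 (82 bases with Pigl and 1 base with Ttc19) and of Ncoa1 (68 bases with 4921501I09Rik) are exonic on both strands.

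The upstream sequences of Thrb and Ncoa1 are shown because these were the members that lay higher in every mutant sample. For Thrb, the start site shown is the one that holds the receptor's own recognition hexamer. RefSeq (GRCm38.p6) gave 7 start sites for 5 of the 7 genes, namely Thrb, Ncoa1, Ncor1, Dio2 and Klf9. Each line gives the 250 bases before a start site, 5′ to 3′ on the gene's strand, chr14:17660710-17660959 (plus) for Thrb and chr12:4477183-4477432 (minus) for Ncoa1. Capitals mark matches, on either strand, to the receptor hexamer AGGTCA or to the GC box GGGCGG, to which factors of the Sp and Klf families, Klf9 among them, are known to bind.
Thrb: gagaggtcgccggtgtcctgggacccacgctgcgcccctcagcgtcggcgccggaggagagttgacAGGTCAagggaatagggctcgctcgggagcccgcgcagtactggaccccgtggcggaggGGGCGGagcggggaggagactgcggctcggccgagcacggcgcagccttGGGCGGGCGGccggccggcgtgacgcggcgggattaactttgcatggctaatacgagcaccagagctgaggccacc
Ncoa1: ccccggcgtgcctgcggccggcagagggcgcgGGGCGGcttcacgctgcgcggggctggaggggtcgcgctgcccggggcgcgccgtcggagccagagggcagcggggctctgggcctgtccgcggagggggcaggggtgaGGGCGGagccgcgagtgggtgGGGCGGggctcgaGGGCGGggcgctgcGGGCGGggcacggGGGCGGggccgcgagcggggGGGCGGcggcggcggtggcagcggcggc
The Thrb sequence shown holds 1 match to AGGTCA, 184 bases before the start, and 3 matches to GGGCGG, of which a pair overlaps. The sequence before the other Thrb start site (chr14:17981394-17981643, plus) holds no match to either and is 44.0% G and C. The contrast with Ncoa1 therefore depends on the Thrb start site chosen. The Ncoa1 sequence holds 7 matches to GGGCGG and none to AGGTCA, and is 85.6% G and C, against 71.6% in Thrb. AGGTCA was found on either strand in 14.02% of the 32851 start sites in the table, and in 1 of the 7 start sites of these genes. GGGCGG was in 32.7% of all start sites and in 3 of the 7, those of Ncoa1, 1 of Ncor1 and 1 of Thrb. The hormone response element in its usual form, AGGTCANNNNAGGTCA, was found in 0.0152% of all start sites (5 of 32851) and in none of the 7. These are matches of letters, not measured binding.

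Dio2 (ENSMUSG00000007682, chr12:90724554-90738438, minus strand) encodes the activating deiodinase. It had 2.06, 2.13, 1.77 and 1.15 FPKM in controls 1 to 4 and 1.91, 2.13 and 3.18 FPKM in mutants 1 to 3. Mutant 3 was well above all control samples, mutant 2 was level with the highest of them, mutant 1 lay within their range, and control 4 was the lowest of all. The mean was 1.78 ± 0.447 FPKM (SD, n = 4) for control nerves against 2.40 ± 0.678 FPKM (SD, n = 3) for mutant nerves, and the log2 fold change of 0.35 did not pass the test (SE 0.203, 95% interval -0.11 to 0.81, adjusted p = 0.322, limma-trend). It was 0.17 without mutant 3 and 0.20 without control 4. Dio2 rested on 209 to 520 reads per sample, and 100 of its exonic bases are shared with Gm26512 on the other strand. Since Dio2 is an astrocyte gene, it was also set against 7 astrocyte markers. Of these, 6 of 7 were higher in every mutant sample (12.9% of all genes) and 4 of 7 passed the threshold as higher (1.26% of all genes). None was at 0, and their sum ran from 2903 to 3338 FPKM in control and from 3752 to 4606 FPKM in mutant samples. Log2 of Dio2 minus the mean log2 of these markers was -6.88 ± 0.352 (SD, n = 4) for control nerves against -7.02 ± 0.239 (SD, n = 3) for mutant nerves, with overlapping ranges (difference -0.14, exact permutation p = 0.629, two-sided).

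Klf9 (ENSMUSG00000033863, chr19:23141226-23166911, plus strand) encodes a zinc finger factor that is induced directly by the hormone and also by glucocorticoids. It had 46.5, 37.1, 45.5 and 41.3 FPKM in controls 1 to 4 and 52.3, 55.0 and 46.2 FPKM in mutants 1 to 3. Mutants 1 and 2 were above all control samples, while mutant 3 fell within the control range. The mean was 42.6 ± 4.31 FPKM (SD, n = 4) for control nerves against 51.2 ± 4.53 FPKM (SD, n = 3) for mutant nerves, or 120.1% of control. The log2 fold change was 0.26 (SE 0.0942, 95% interval 0.05 to 0.48, adjusted p = 0.139, limma-trend), and no alternative brought it past the threshold.

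Hr (ENSMUSG00000022096, chr14:70553687-70573548, plus strand) encodes hairless, a corepressor that binds thyroid hormone receptors and whose gene is a direct target of the hormone in brain. It had 21.8, 19.6, 20.9 and 25.6 FPKM in controls 1 to 4 and 17.3, 18.3 and 14.7 FPKM in mutants 1 to 3. All mutant samples lay below the control samples, and mutant 3 was the lowest. The mean was 21.965 ± 2.60 FPKM (SD, n = 4) for control nerves against 16.8 ± 1.86 FPKM (SD, n = 3) for mutant nerves, which is 76.3% of control. For Hr the log2 fold change was -0.38 (SE 0.107, 95% interval -0.62 to -0.14, adjusted p = 0.0892, limma-trend). It passed on reads with the edgeR likelihood ratio test (-0.44, adjusted p = 0.00957) and DESeq2 (-0.43, adjusted p = 0.00697), and on the normalized counts with the replicate block (-0.40, adjusted p = 0.0481). By the edgeR quasi-likelihood test it did not pass (-0.44, adjusted p = 0.0635). Klf9 and Hr, both known as genes that the hormone induces, thus had fold changes of opposite sign, 0.26 and -0.38. No other annotated gene overlaps Hr in GENCODE M21.

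Of 33 other genes of the pathway, 30 passed the filter and 3 passed the threshold (1 higher and 2 lower, with 1.26% and 1.36% of all genes as background). At an unadjusted p under 0.05, 10 of the 30 passed, against 24.4% of all genes, and in 6 of the 30 the genotypes did not overlap, against 21.1%. Their median log2 fold change was 0.07, beside 0.05 over all genes, with 22 positive and 8 negative values. This split moved to 17 positive and 13 negative with median-ratio scaling, and to 14 and 16 on the normalized counts. Of the values below that did not pass, those of Crym, Rxrb, Hdac3, Ncoa2, Ncoa3, Gpd2 and Nrgn moved by over 1.5 times with several of the samples left out in turn.

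**Figure D3:**
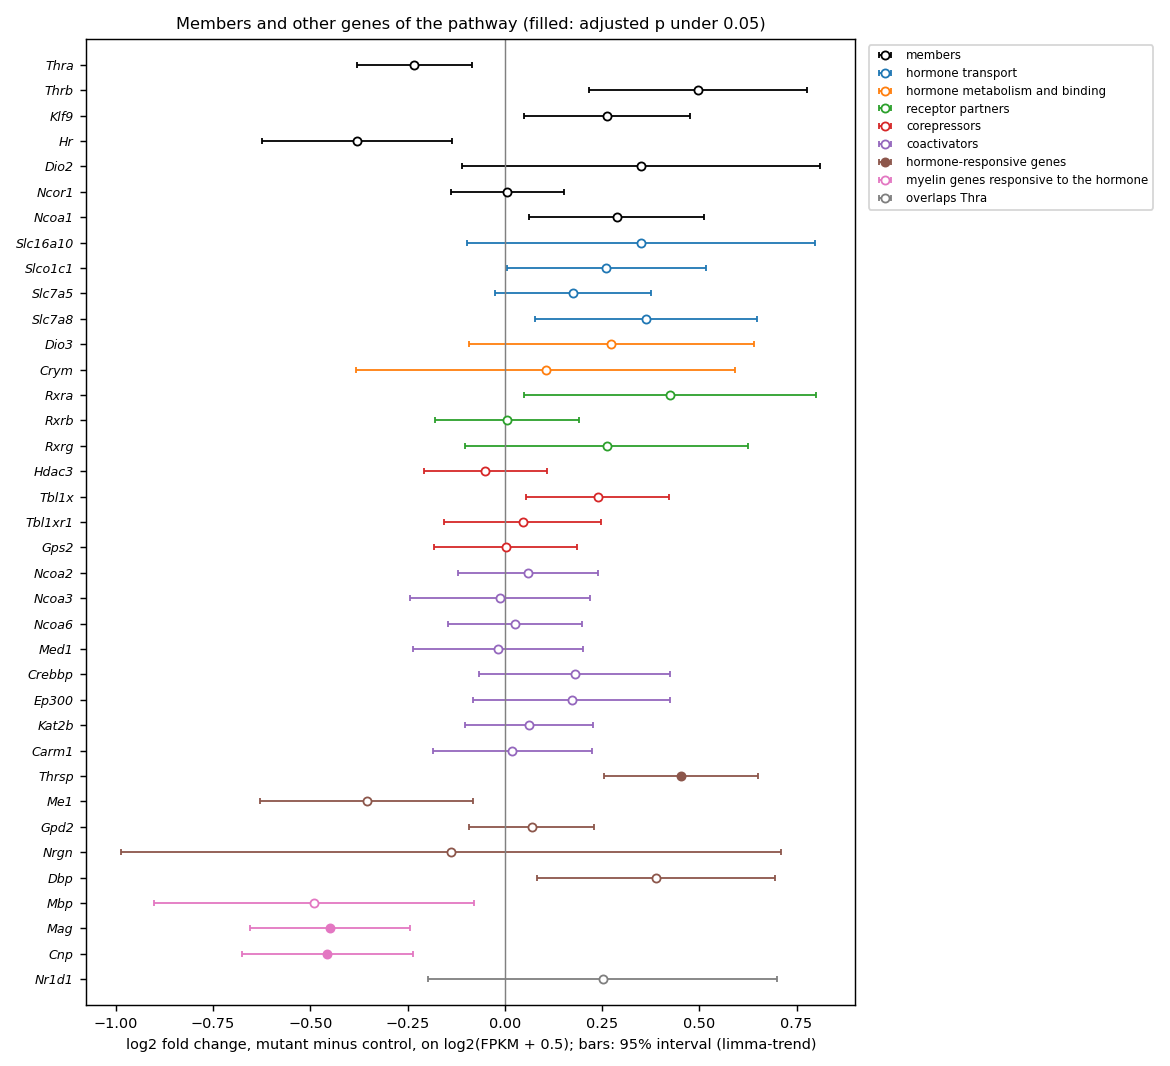
Log2 fold change (mutant minus control, on log2(FPKM + 0.5)) with its 95% interval from limma-trend for the 7 genes (black) and the other tested genes of the pathway, coloured by group, with filled points at an adjusted p under 0.05. Filled points are Thrsp to the right of 0 and Mag and Cnp to the left, and the 4 transporters are all to the right.

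All 4 hormone transporter genes listed had positive fold changes (median 0.31, range 0.18 to 0.36), and none passed the threshold. Slco1c1, the thyroxine transporter of brain vessels and astrocytes, gave 0.26 (adjusted p = 0.196), and the amino acid transporters Slc7a5 and Slc7a8, which also carry the hormone, gave 0.18 (adjusted p = 0.257) and 0.36 (adjusted p = 0.133). Slc16a10, an aromatic amino acid transporter, was low at 0.425 to 0.586 FPKM in control and 0.483 to 1.26 FPKM in mutant samples. Leaving out 1 sample moved Slc16a10 from 0.35 to 0.12 (mutant 1) or 0.54 (mutant 2), Slco1c1 to 0.15 (mutant 2), and Slc7a5 to 0.10 (mutant 3) or 0.29 (mutant 1), and Slc7a8 passed on the normalized counts with the replicate block (adjusted p = 0.0481). The 4 markers of endothelial cells, in which several of these transporters are found, were also higher in every mutant sample (12.9% of all genes). They summed to 69.4 to 80.1 FPKM in control and 88.4 to 100.1 FPKM in mutant, with none past the threshold and none at 0. The part of vessel and astrocyte RNA in the transporter values was not tested.

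Among genes of hormone breakdown and binding, Dio3, which inactivates both hormone forms, had 0.438 to 0.771 FPKM in control and 0.703 to 0.901 FPKM in mutant samples (log2 fold change 0.27, adjusted p = 0.328). Dio1, the deiodinase of liver and kidney, was listed at 0 in 5 of the 7 samples and was not tested. Crym, a cytosolic hormone binder, gave 0.11 (adjusted p = 0.800). Ttr, which encodes the thyroxine carrier made by the choroid plexus, was not tested, since it had 0.379, 0.167, 0.208 and 0.393 FPKM in controls 1 to 4 and 14.1, 0.475 and 0.269 FPKM in mutants 1 to 3. Mutant 1 stood apart from the other 6 samples. In these nerves, deiodinase transcripts were thus at low levels throughout, with Dio2 the highest of the 3.

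Of the 3 retinoid X receptors, the partners of the receptors on DNA, Rxra was higher in every mutant sample (12.9% of all genes). It had 17.0, 13.98, 19.9 and 19.8 FPKM in control and 30.7, 20.0 and 21.6 FPKM in mutant samples. The gap was narrow, since mutant 2 stood just above the highest control samples, and the fold change of 0.42 (adjusted p = 0.162) was 0.24 without mutant 1. Rxrb gave 0.01 (adjusted p = 0.974) and Rxrg, at about 1 FPKM, gave 0.26 (adjusted p = 0.344), or 0.10 without mutant 2.

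The 4 other corepressor genes listed had a median of 0.02 and ranged from -0.05 for Hdac3 (adjusted p = 0.695), the deacetylase of the NCoR complex, to 0.24 for Tbl1x, which encodes a subunit of that complex (adjusted p = 0.127). Tbl1x was higher in every mutant sample (14.8 to 17.6 FPKM) than in the control samples (12.4 to 14.1 FPKM), as were 12.9% of all genes. The 8 other coactivator genes ranged from -0.02 to 0.18 (median 0.04), none at an unadjusted p under 0.05, with Crebbp and Ep300, which encode acetyltransferases, at 0.18 and 0.17 (adjusted p = 0.338 and 0.370), or 0.08 and 0.05 without mutant 1. Ncoa2 and Ncoa3, the paralogs of Ncoa1, gave 0.06 and -0.01 (adjusted p = 0.678 and 0.958).

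Among 6 further genes known to respond to the hormone, 5 were tested (Pcp2, at 0 in 4 of the 7 samples, was not) and 1 passed. Thrsp, a hormone-induced gene of fatty acid synthesis, had 18, 16.1, 19.6 and 18.8 FPKM in controls 1 to 4 and 22.6, 26.5 and 25.8 FPKM in mutants 1 to 3. It was higher in every mutant sample (138% of control, log2 fold change 0.45, SE 0.0872, adjusted p = 0.0388, limma-trend), and the call was lost in 5 of the 7 fits that left out 1 sample, all but those without mutant 1 or mutant 2. It was also lost with no filter, with no trend, with median-ratio scaling, on the normalized counts with or without the replicate block, and by the edgeR quasi-likelihood test (adjusted p from 0.0546 to 0.0789). The call held by the edgeR likelihood ratio test (adjusted p = 0.0106) and by DESeq2 (adjusted p = 0.00639). Me1, the malic enzyme that supplies reducing power for fatty acid synthesis and is induced by the hormone in liver, gave -0.36 (adjusted p = 0.126), and with the replicate block -0.47 (adjusted p = 0.0251). It also passed by the edgeR likelihood ratio test (adjusted p = 0.0346) and by DESeq2 (adjusted p = 0.0256). The fit without control 4 (adjusted p = 0.0411, limma-trend) had the same estimate as the block, so it is not separate support. Dbp, a clock output factor, gave 0.39 (adjusted p = 0.132), and with the replicate block 0.50 (adjusted p = 0.0293). Thrsp and Me1, both lipogenic and both hormone-induced in liver, thus had opposite signs, as did Klf9 and Hr. Gpd2 and Nrgn gave 0.07 and -0.14 (adjusted p = 0.582 and 0.856).

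All 3 myelin genes listed as known to respond to the hormone were lower in every mutant sample (8.26% of all genes), and 2 of them passed. Mag, a glycoprotein of the membrane next to the axon, had 2363 to 2674 FPKM in control and 1747 to 1941 FPKM in mutant samples (-0.45, SE 0.0906, adjusted p = 0.0437, limma-trend). Cnp, an enzyme of non-compact myelin, had 2580 to 2783 FPKM in control and 1860 to 2213 FPKM in mutant samples (-0.46, SE 0.0969, adjusted p = 0.0480, limma-trend). Both calls were lost with the replicate block (adjusted p = 0.0726 for Mag and 0.0605 for Cnp) and in 6 of the 7 fits without 1 sample, all but the one without mutant 2. On the normalized counts they were lost as well (adjusted p = 0.0575 for Mag and 0.0876 for Cnp), and Cnp also with median-ratio scaling (0.0615) and by the edgeR quasi-likelihood test (0.0645). Mag passed by the quasi-likelihood test (adjusted p = 0.0450). Both passed by the edgeR likelihood ratio test (adjusted p = 5.76e-05 for Mag and 0.000738 for Cnp). Both also passed by DESeq2 (adjusted p = 1.33e-07 for Mag and 6.00e-05 for Cnp). Mbp, a major protein of compact myelin, gave -0.49 (adjusted p = 0.147), with means of 26382.5 ± 2482 FPKM (SD, n = 4) for control nerves against 18797 ± 2207 FPKM (SD, n = 3) for mutant nerves. Mbp passed by the edgeR likelihood ratio test (adjusted p = 0.00383) and by DESeq2 (adjusted p = 0.000751). Of 4 markers of newly formed OLs, 3 were likewise lower in every mutant sample (8.26% of all genes). The other, Bmp4, overlapped between genotypes and had a positive log2 fold change (0.16, adjusted p = 0.508, limma-trend). The sum of the 4 was 937 to 1074 FPKM in control against 668 to 819 FPKM in mutant samples. Of the 4, 1 (Gpr17) passed the threshold as lower (1.36% of all genes) and none was at 0. The sum of 5 other markers of myelinating OLs was 8789.5 to 9930.2 FPKM in control and 6406 to 8956 FPKM in mutant samples, with 1 of 5 lower in every mutant sample (8.26% of all genes). The part of OL number in the values of Thra and Hr, which were lower alongside these genes, was not tested.

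The sum of meningeal fibroblast markers was highest in mutant 1 (1353 FPKM, against 681 to 698 FPKM in mutants 2 and 3 and 413 to 773 FPKM in control). Among the 3 mutant samples Thrb ran from 2.73 to 2.75 FPKM and Ncoa1 from 9.72 to 10.8 FPKM. The sum of neuron markers was highest in mutant 3 (25.0 FPKM, against 10.3 to 16.3 FPKM in the other 6 samples), where Dio2 and Ncoa1 were highest and Hr lowest. No fibroblast or neuron marker passed the threshold, and none was at 0. The part of these cells in the values was not tested. The log2 fold changes of Thrb and Hr were 0.49 and -0.41 without mutant 1 and 0.50 and -0.29 without mutant 3. Progenitor markers ran from 85.3 to 117.2 FPKM in control and from 93.2 to 105.5 FPKM in mutant samples, with overlap of the sums. Of the 3, 1 (Cspg4) passed the threshold, lower in mutant samples (1.36% of all genes). Microglial markers summed to 157.6 to 192.9 FPKM and 196.9 to 214.8 FPKM (1 of 5 higher in every mutant sample, against 12.9% of all genes), and mural markers to 66.4 to 102.6 FPKM and 95.7 to 109.5 FPKM (none of 3), with no marker past the threshold and none at 0.

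**Figure D4:**
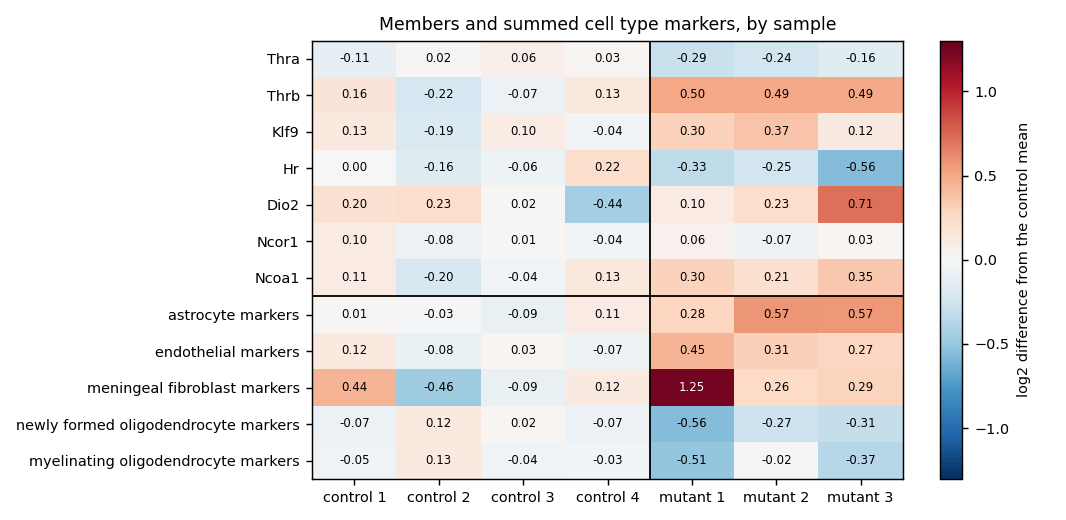
Difference from the control mean, on the log2 scale, of the 7 genes (top) and of the summed FPKM of 5 marker lists (bottom) in each of the 7 samples (columns). Thrb is near 0.50 in all 3 mutant samples, Dio2 reaches 0.71 in mutant 3 alone, and the fibroblast markers reach 1.25 in mutant 1.

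To place each gene among all others, its pattern over the 7 samples (log2(FPKM + 0.5) minus the control mean) was compared with those of 11695 genes with a mean of at least 2 FPKM, by the root mean square distance. The nearest to Thra were Brsk1 (0.0278 on the log2 scale) and 1700021K19Rik (0.0374). The nearest to Thrb were Angpt1 (0.0428) and Il6st (0.0450), and those to Ncoa1 were Arl4c (0.0231) and Usp53 (0.0271). Ncor1 had Wdr70 (0.0185) and Plaa (0.0204), Hr had Sec14l5 (0.0406) and Mta3 (0.0663), and Klf9 had Zbtb38 (0.0471) and Gata2 (0.0575). Dio2 stood farthest from its nearest genes, Rlbp1 (0.123) and Ntm (0.150). Since the distance includes the genotype difference and the shared libraries, these values are a description only. No member was among the nearest 2 genes of another.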

How the data were processed

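Poly(A) RNA from whole P14 optic nerves was sequenced in 7 samples with a stranded kit in single end mode. The authors aligned reads with STAR 2.5.1b to GRCm38 and estimated counts with RSEM 1.2.22. They deposited 2 values per gene and sample, a normalized count (a signal, the RSEM count divided by a size factor) and FPKM. The authors' log2 ratio, p-value and FDR columns were not used. FPKM recomputed from the normalized counts differed by at most 0.284%. Of the low normalized counts, 73.7% to 78.9% were whole multiples of the value of 1 read (within 0.02 reads), so reads were recovered and rounded. The remaining low values were not whole, so the recovered reads are rounded estimates. Replicates differed by more than sampling noise (median chi-square per gene 2.15 to 6.34) and each was kept. The labels name separate samples of each genotype.

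The test was limma-trend (limma 3.58.1, R 4.3.3) on log2(FPKM + 0.5) for genes with at least 0.5 FPKM in at least 3 samples, with genotype as the only term and all 7 samples. It understates the change of low genes such as Thrb and Dio2. It was tested on simulated data with known changes before use. Single values were compared by exact permutation tests (scipy 1.17.1), which cannot go below 0.0571 two-sided. Alternatives were other pseudocounts (0.1 and 1), filters and scalings, edgeR 4.0.16 and DESeq2 1.42.0 on reads, a replicate block and leaving out each sample. The labels number the samples. What the numbers stand for is not given. Same-numbered samples tended to deviate together (correlations 0.168, 0.409 and 0.270 over 3 pairs, against -0.353 to 0.205 for other pairs), but these ranges overlap. The deviations were taken from the mean of each genotype, so the correlations are not independent. The main test did not pair the samples, and pairing by number entered only as an alternative.

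All 7 members are named, and of the lists the genes past the threshold, without overlap or at 0 and up to 4 of the highest mean FPKM, beside Fasn and the 2 nearest patterns per member. The remaining list genes with values in the text were chosen once those values were known. The members and lists were chosen with earlier results of these data known, and some genes of the lists are not reported here and were left out of their counts. Promoters are from RefSeq (GRCm38.p6), overlaps from GENCODE M21 (GRCm38).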

Additional observations from a re-analysis of the deposited data

Results flagged for a closer look

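Among 25 genes whose 4 control samples were examined for a sample far from the others, 2 had one, where chance gives about 1 in 20 (5%). Rxrg, a retinoid X receptor at a low level, had its highest control value in control 2, at 1.25 FPKM, with a gap to the next sample of 0.882 of the whole control range. Cnp had its lowest control value in control 1, at 2580 FPKM, with a gap of 0.842 of the range, and this sample was still above every mutant sample.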

How the results depend on the processing

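The 6 members other than Ncor1 kept their direction under every alternative run. Ncor1, at 0.01, turned negative with median-ratio scaling (-0.0466), on the normalized counts (-0.0714), in the edgeR quasi-likelihood (-0.0431) and likelihood ratio (-0.0432) tests and DESeq2 (-0.0408), with the replicate block (-0.00597) and on the normalized counts with the block (-0.0944), and it ran from -0.0203 to 0.0428 without 1 sample. The count of genes past the threshold, 363, became 95 without the filter, 1342 with the edgeR likelihood ratio test, 1707 with DESeq2, 57 without the trend, 1159 with the replicate block, 1227 on the normalized counts with the block, and 6 to 909 when 1 sample was left out (6 without control 3 or mutant 3, 909 without mutant 2). Members past it were 0 under limma on FPKM and without any 1 sample, 1 with the edgeR quasi-likelihood test, 3 with its likelihood ratio test, 3 with DESeq2 and 2 on the normalized counts with the block. The 3 other pathway genes past it became 0 without the filter, 1 with median-ratio scaling, 0 on the normalized counts, 1 with the quasi-likelihood test, 5 with the likelihood ratio test, 5 with DESeq2, 0 without the trend, and 0 to 3 when 1 sample was left out. Of the members, the values that passed under an alternative alone were Thra at -0.28 (likelihood ratio test, DESeq2), Thrb at 0.55 (both edgeR tests), 0.56 (DESeq2) and 0.58 (normalized counts with the block), and Hr at -0.44, -0.43 and -0.40. The cause was not tested. Beyond the calls of Mag, Cnp, Me1 and Dbp given above, the block on FPKM changed no other call among the members and the pathway genes. Depth limits Thrb and Dio2 most among the members, and Dio3, Rxrg, Crym, Nrgn and Slc16a10 among the pathway genes, and levels at about 1 FPKM are compressed by the pseudocount.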

Other observations

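Kcnj13 and Kl, genes outside the lists that were picked after their values were seen, are expressed in the choroid plexus like Ttr. Both were highest in mutant 1, at 34.4 and 9.97 FPKM, but both were higher in every mutant sample, as were 12.9% of all genes. Kcnj13 had 17.6 to 34.4 FPKM in mutant against 11.2 to 14.6 FPKM in control samples. Kl had 5.29 to 9.97 FPKM against 3.31 to 4.998 FPKM. Neither passed the test (log2 fold change 0.82, adjusted p = 0.0662, and 0.65, adjusted p = 0.107, limma-trend).

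Tsc22d3, likewise picked after its values were seen and known to be induced by glucocorticoids, had 140.6 to 147.6 FPKM in control and 181.2, 208.6 and 141.7 FPKM in mutant samples 1 to 3. The order of the mutant samples, highest in mutant 2 and lowest in mutant 3, was that of Klf9, which responds to both hormones. In the control samples the order was the reverse of that of Klf9. Control 1 was highest for Klf9 (46.5 FPKM) and lowest for Tsc22d3 (140.6 FPKM). Control 2 was lowest for Klf9 (37.1 FPKM) and highest for Tsc22d3 (147.6 FPKM). The log2 fold change of Tsc22d3, 0.27 (adjusted p = 0.192, limma-trend), did not pass the test. With 3 mutant samples a shared order can be read only as a description.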
